A study of Mus musculus with 9 samples.

Results

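Spermatogonial differentiation genes are described here: Kit, Sohlh1, Sohlh2, Dmrt1, Rarg, Lin28a, Crabp1, Sall4 and Uchl1. These 9 genes were chosen by name from the 32285 genes of the deposited count tables, and all 9 were detected in over 15 cells. Spermatogonia (SG) are the premeiotic germ cells of the testis. Retinoic acid drives undifferentiated SG to become differentiating SG, which gain the receptor tyrosine kinase KIT, divide and enter meiosis as preleptotene spermatocytes (pL). SOHLH1 and SOHLH2 are basic helix-loop-helix transcription factors of this step, DMRT1 holds back meiotic entry in SG, and SALL4, LIN28A and UCHL1 are widely used as markers of SG.

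The data were single-cell RNA-seq of whole testis from male mice at postnatal day 24, with 1 library per mouse. There were 4 control mice (littermate or non-littermate), 2 NELF-B conditional knockout (cKO) mice and 3 TDP-43 cKO mice, labelled C57BL/6 and, per the methods, backcrossed to C57BL/6 J, with floxed lines from C57BL/6 N or mixed stock. Whether each control mouse carried Cre is not given in the labels, and the name of the deposited data of control 2 contains "het", whose meaning is not given. The cKO mice carried the Stra8-iCre transgene, a null allele and a floxed allele of the targeted gene, either Nelfb (exons 1 to 4 floxed) or Tardbp (exon 3 floxed), so deletion started within SG and Cre-mediated excision may be incomplete at this age. NELF-B is a subunit of the complex that pauses RNA polymerase II near promoters and TDP-43 is an RNA- and DNA-binding protein, and the genotype comparisons ask how germ cell expression differed when either was lost. Tags were read near the 3′ end of transcripts, outside the floxed exons, so they check the deletion only through the level of the remaining transcript. With no cell left out, Nelfb in SG measured 6.25 and 5.29 CPM (UMIs of the gene per 1000000 UMIs of the cells) in the NELF-B cKO mice against 61.5 to 76.3 in control mice, and Tardbp measured 31.2, 34.7 and 35.4 CPM in the TDP-43 cKO mice against 63.5 to 69.8.

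Total UMIs (unique molecular identifiers, 1 per captured transcript) ranged from 119203347 to 159407373 per mouse. Cells were clustered without the 9 genes, and 24609 cells of named types were used after germ cells of cKO mice in which the targeted transcript was still detected had been dropped. That step left out 2.70% and 10.0% of SG in the NELF-B cKO mice, whereas TDP-43 cKO mice lost 65.2%, 55.3% and 57.6% of SG and control mice lost none. The SG comprised undifferentiated SG (79 to 151 cells per control mouse) and differentiating SG (152 to 253 cells per control mouse). The pL cluster scored 1.51 on pL markers (3 at 2-fold or more) and 1.47 on markers of differentiating SG (4 at 2-fold or more), so these neighbouring stages were nearly tied. The cluster named leptotene (L) scored 4.11 on L markers and 2.71 on pL markers (4 of each at 2-fold or more). It thus scored above the pL cluster on pL markers. Each name is only the highest-scoring list of its cluster, so the bounds between these stages are uncertain. Levels below are CPM of UMIs summed over the cells of a type in a mouse, and fewer transcripts per cell and a larger share of other transcripts cannot be told apart in them.

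The transcription factor genes Sohlh1 and Sall4 were highest in undifferentiated SG of control mice. Levels across cell types are a description with no test, since the cells were typed by expression. Sohlh1 (chr2:25842995-25847248, minus strand, GRCm38) measured 194, 180, 199 and 193 CPM in undifferentiated SG of the 4 control mice and 131, 117, 131 and 108 CPM in differentiating SG. It then measured 47.7 ± 4.24 CPM in pL, 18.6 ± 2.46 in leptotene (L) and 1.09 ± 0.499 in zygotene (Z) spermatocytes (mean ± SD, n = 4). No control mouse of one of these stages overlapped the next stage in this order. Sall4 (chr2:168748332-168767943, minus strand), a zinc finger factor of stem and progenitor cells, measured 110, 115, 103 and 101 CPM in undifferentiated SG and 53.1, 54.6, 57.2 and 44.6 CPM in differentiating SG. Its level was 10.9 ± 2.60 CPM in pL and 0.705 ± 0.221 in Z. In L the control mice measured 0, 1.35, 11.3 and 1.23 CPM, and control 3 lay inside the pL range. Undifferentiated SG exceeded differentiating SG by 1.57-fold for Sohlh1 and 2.05-fold for Sall4, in every control mouse.

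The promoter of Sohlh1 is shown because SOHLH1 and its partner SOHLH2 belong to a family that binds E-boxes. That of Kit is shown because differentiating SG gain KIT. The 250 bases before each RefSeq start (GRCm38.p6) are given 5′ to 3′, with every E-box (CANNTG, which reads as an E-box on both strands) in capitals. Sohlh1 on the minus strand (chr2:25847249-25847498) held 5 E-boxes and Kit on the plus strand (chr5:75574737-75574986) held none.
Sohlh1: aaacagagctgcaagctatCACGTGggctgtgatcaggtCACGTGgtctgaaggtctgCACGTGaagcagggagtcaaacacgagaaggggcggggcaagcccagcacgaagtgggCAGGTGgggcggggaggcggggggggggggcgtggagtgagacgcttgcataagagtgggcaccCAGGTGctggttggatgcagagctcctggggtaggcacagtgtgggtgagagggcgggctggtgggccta
Kit: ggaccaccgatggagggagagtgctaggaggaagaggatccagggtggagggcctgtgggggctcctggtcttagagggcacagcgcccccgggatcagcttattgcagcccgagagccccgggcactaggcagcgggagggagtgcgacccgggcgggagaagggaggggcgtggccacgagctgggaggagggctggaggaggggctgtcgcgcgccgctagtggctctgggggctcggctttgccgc

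Of 32851 promoters in the table, 66.22% held at least 1 E-box and 1.154% held at least 5. The table held 7 of the 9 genes, without Dmrt1 and Sall4. Sohlh1, Sohlh2 and Rarg had an E-box in this window, and Kit, Lin28a, Crabp1 and Uchl1 had none.

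Sohlh2 (chr3:55182028-55209957, plus strand) had another pattern. In control mice it measured 16.8, 22.9, 30.7 and 34.8 CPM in undifferentiated SG and 33.0, 29.6, 28.2 and 42.3 CPM in differentiating SG, and these ranges overlapped. Its highest mean was in Z, at 55.5 ± 13.6 CPM, with mice at 42.1, 74.0, 49.7 and 56.1 CPM whose lowest value lay just under the highest of differentiating SG. In pachytene spermatocytes (P) it was at 3.42 ± 0.864 CPM. Over the 15 named cell types its pattern was most like that of Dazl, a germ cell RNA-binding protein (Pearson r = 0.959 on log2(CPM + 1) of control means), while that of Sohlh1 was most like Sox3, a transcription factor of undifferentiated SG (r = 0.989). Among the 14520 other genes compared, each over the same 15 cell types that share libraries and depth, Rspo4 was among the 3 most alike for both Sall4 (r = 0.961) and Lin28a (r = 0.938).

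Dmrt1 (chr19:25505618-25604329, plus strand) was high through SG and pL. Control mice measured 236, 302, 255 and 252 CPM in undifferentiated SG, 268, 323, 307 and 328 in differentiating SG and 227, 270, 226 and 268 in pL, with neighbouring ranges that overlapped. Within each of the 4 control mice it was higher in differentiating than in undifferentiated SG and lower again in pL. The level was 65.1 ± 12.3 CPM in L and 4.13 ± 0.687 in Z. Sertoli cells, the somatic nurse cells in which Dmrt1 is also known to act, measured 65.8, 83.3, 80.8 and 79.2 CPM. Other somatic types had control means of 4.34 CPM (Leydig) to 17.3 CPM (a cluster named innate lymphoid, whose leading genes also include the class II genes H2-Aa and Cd74).

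**Figure D1:**
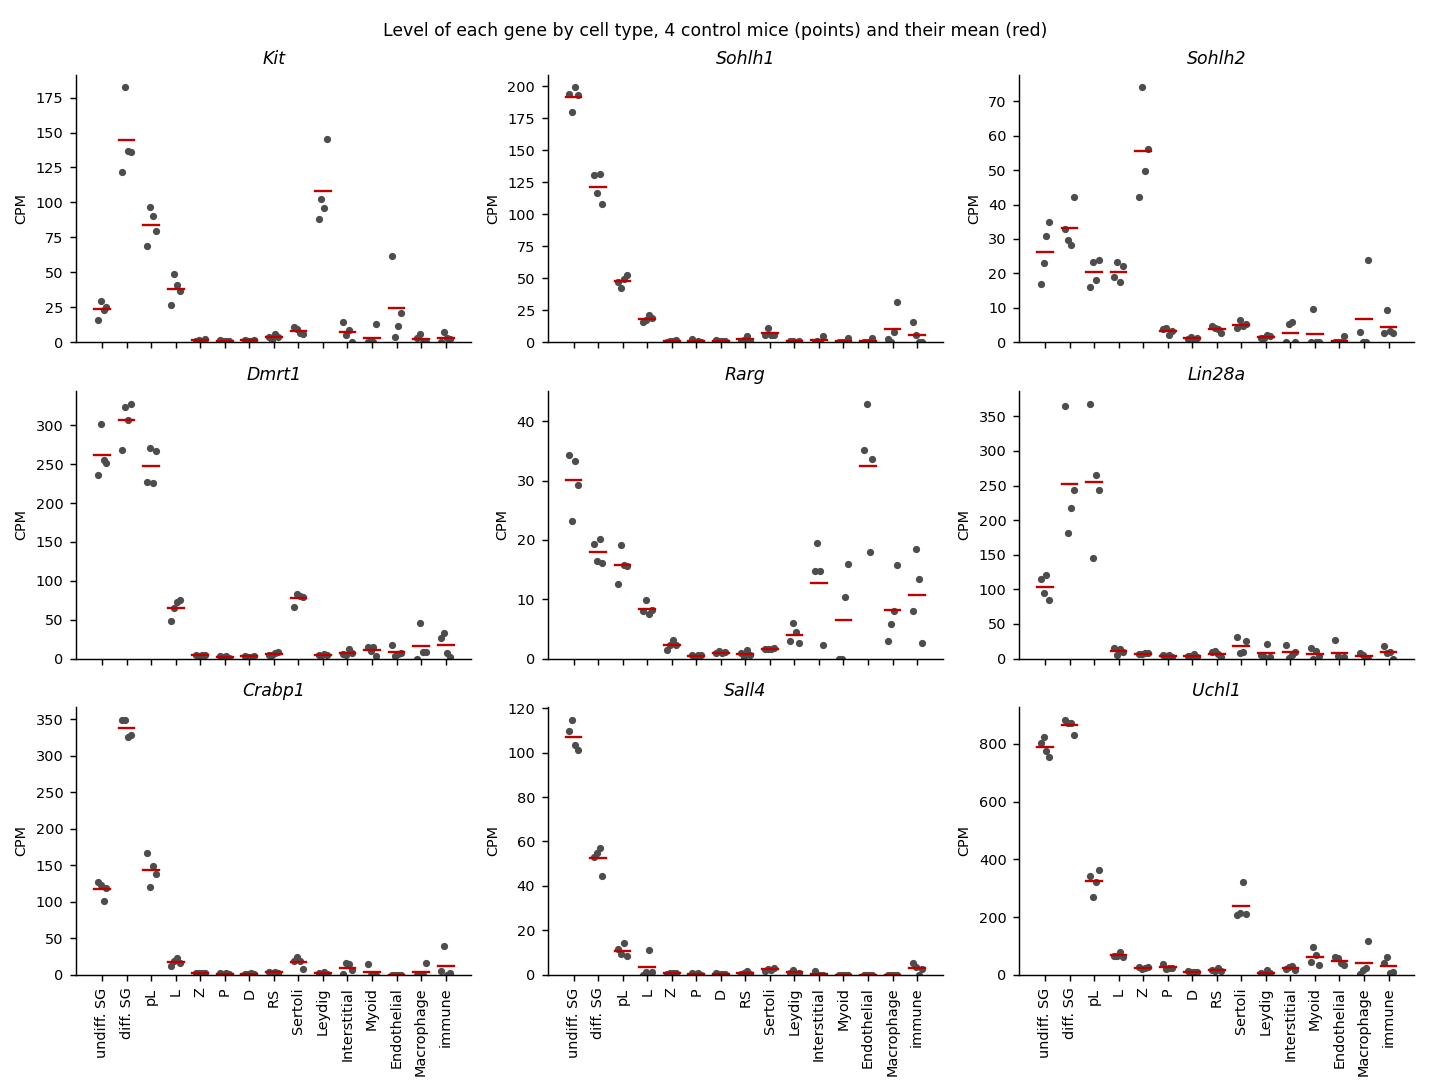
Levels of the 9 genes in each named cell type of the control mice (CPM on a linear axis from 0, points are the 4 mice, red lines their mean, and the label immune marks the innate lymphoid cluster). Sohlh1 and Sall4 were highest in undifferentiated SG, Kit and Crabp1 in differentiating SG, and Kit was also high in Leydig cells (107.8 CPM).

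The signalling genes Kit and Crabp1 were highest in differentiating SG. Kit (chr5:75574916-75656722, plus strand) measured 16.2, 29.9, 22.8 and 25.5 CPM in undifferentiated SG of control mice and 122, 182, 137 and 136 CPM in differentiating SG, a 6.12-fold difference that was the largest among the 9 genes. It was 84.0 ± 12.2 CPM in pL, 38.2 ± 8.99 in L and 1.38 ± 0.697 in Z. Among somatic types, Leydig cells, the androgen-producing cells known to express KIT, measured 88.0, 102, 95.9 and 145 CPM, a range that overlapped both differentiating SG and pL. With each cell thinned to 2000 UMIs, 20.5% to 30.8% of differentiating SG of control mice held a Kit UMI against 1.65% to 3.57% of undifferentiated SG and 0.555% to 2.50% of round spermatids.

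Crabp1 (chr9:54764748-54773110, plus strand), a cytosolic retinoic acid-binding protein, measured 127, 123, 101 and 119 CPM in undifferentiated SG and 349, 349, 326 and 328 CPM in differentiating SG. This was a 2.88-fold difference in the control mice. In pL it was 143 ± 19.7 CPM, which overlapped undifferentiated SG, and in L it was 17.8 ± 4.63. Rarg (chr15:102234938-102257517, minus strand), the retinoic acid receptor of SG, was low throughout, at 34.3, 23.2, 33.3 and 29.3 CPM in undifferentiated SG and 19.4, 16.4, 20.2 and 16.1 in differentiating SG. Endothelial cells, with 10 to 25 cells per control mouse, had the highest Rarg mean (32.5 ± 10.5 CPM) and overlapped undifferentiated SG.

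Lin28a and Uchl1 were detected in both SG classes. Lin28a (chr4:134003330-134018841, minus strand), an RNA-binding protein that blocks let-7 maturation, measured 115, 94.2, 120 and 85.2 CPM in undifferentiated SG, 365, 181, 218 and 244 in differentiating SG and 369, 146, 265 and 243 in pL of control mice, then 11.01 ± 4.61 CPM in L. Uchl1 (chr5:66676091-66687234, plus strand), a deubiquitinating enzyme, measured 802, 825, 776 and 753 CPM in undifferentiated SG and 883, 874, 871 and 830 in differentiating SG. Its level was 325 ± 39.6 CPM in pL, 68.7 ± 6.86 in L and 238 ± 55.1 in Sertoli cells.

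In thinned cells, the 10% of differentiating SG with the most Lin28a UMIs held 81.6%, 94.1%, 84.3% and 81.6% of all its UMIs in the control mice, with up to 21 UMIs in 1 cell. For Uchl1 the same share was 28.5%, 28.9%, 26.1% and 33.6%, but this measure rises as fewer cells hold a UMI, so the genes cannot be compared on it. The share of differentiating SG with a Lin28a UMI in control mice (11.5% to 19.1%) was close to that of undifferentiated SG (13.4% to 16.6%), although summed levels differed 2.43-fold. In P, with a Lin28a level of 4.05 CPM, the thinned share was 0.358% to 1.43%. Genes on the opposite strand overlap Lin28a (Gm13061), Sall4 (Gm14261) and Uchl1 (Uchl1os). Whether counting used strand, and so kept the reads of each pair apart, is not given in the sources used here.

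Free RNA gave each of the 9 genes a level outside its cells. Barcodes with 1 to 100 UMIs in control mice held, for example, 58.2 to 86.1 CPM of Uchl1, 23.2 to 40.0 of Lin28a, 15.8 to 33.3 of Dmrt1 and 5.74 to 11.2 of Kit. In P and diplotene spermatocytes (D) every gene other than Rarg lay below the free RNA of the same control mouse, and in Z every gene other than Sohlh2 and Rarg did so, as did Lin28a in L. The part of free RNA in these levels was not tested. Rarg in Z exceeded its free RNA in 3 of the 4 control mice. Free RNA also differed between genotypes.

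The first genotype question was whether the 9 genes differed within SG of NELF-B cKO mice. Lin28a was the gene with the largest difference: SG measured 752 and 307 CPM in the NELF-B cKO mice against 278, 154, 179 and 177 in control mice. Both NELF-B cKO mice lay above every control mouse, and NELF-B cKO 1 stood far above NELF-B cKO 2. The log2 fold change was 1.43 (SE 0.371) and did not pass the test (adjusted p = 0.247, edgeR quasi-likelihood test over 18016 genes). Dmrt1 measured 422 and 327 CPM against 257 to 316 CPM, a log2 fold change of 0.39 (SE 0.113, adjusted p = 0.289). Of the 9 genes 0 were called in SG, 2 had an unadjusted p under 0.05 (Lin28a and Dmrt1), DESeq2 called 0, and 0.0333% of all genes were called.

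On CPM scaled by edgeR's TMM factors, Lin28a and Dmrt1 were the 2 of 9 genes for which no NELF-B cKO mouse overlapped a control mouse, where 19.1% of all genes did not overlap. The median log2 fold change of the 9 genes was 0.19 beside -0.027 over all genes. The other genes had log2 fold changes of -0.22 (Rarg), -0.11 (Sall4), -0.043 (Sohlh2), -0.018 (Sohlh1), 0.19 (Uchl1), 0.27 (Kit) and 0.30 (Crabp1). The share of SG that were differentiating was 82.6% in NELF-B cKO 1 and 53.3% in NELF-B cKO 2 against 56.5% to 69.3% in control mice. Leydig cell markers summed to 47.8 and 76.2 CPM in SG of the NELF-B cKO mice against 13.2 to 22.9 in control mice, interstitial markers to 17.3 and 21.8 against at most 8.44, and macrophage markers to 25.3 and 12.1 against 2.33 to 8.37. Sertoli marker sums were 75.7 CPM in NELF-B cKO 1, below the 78.2 to 163 of control mice, and 322 in NELF-B cKO 2, above them. Myoid marker sums overlapped between these groups. The part of these measures in the result was not tested. Without NELF-B cKO 2, which leaves 1 mouse assumed to vary like the other groups, 4 genes were called, Lin28a, Crabp1 and Dmrt1 higher and Sall4 lower, beside 3.11% of all genes.

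**Figure D2:**
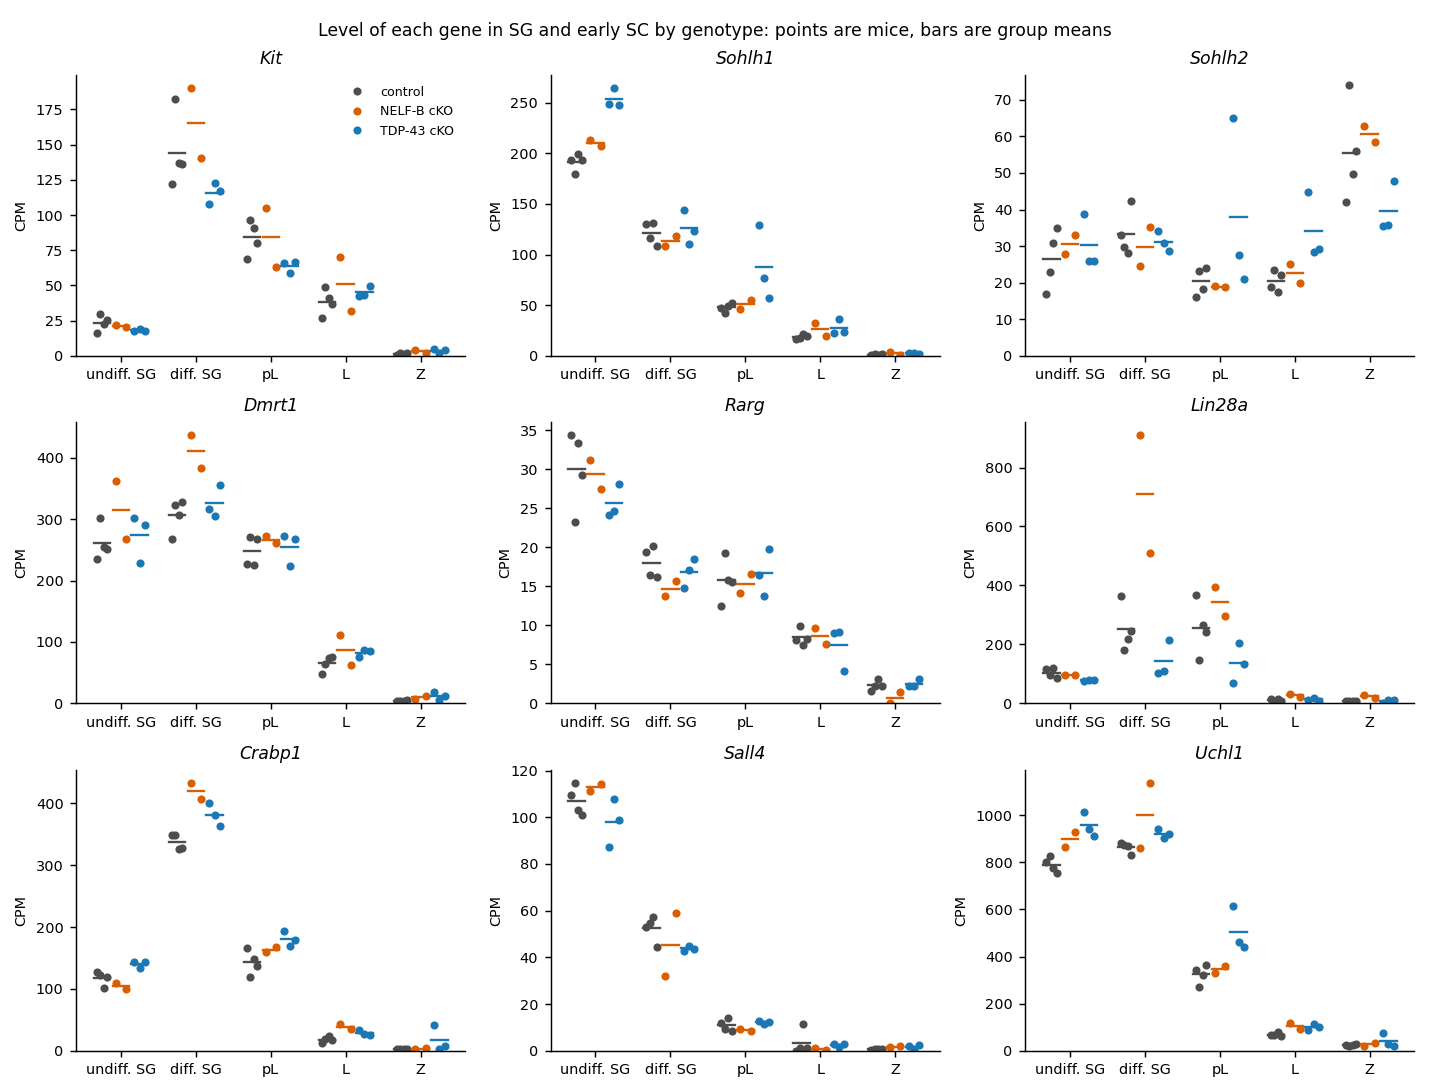
Levels of the 9 genes in undifferentiated SG, differentiating SG, pL, L and Z by genotype (CPM on a linear axis from 0, points are mice, short lines are group means). Lin28a in differentiating SG was at 909 and 509 CPM in NELF-B cKO mice, above the 181 to 365 CPM of control mice.

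Lin28a was then compared within each SG class. Differentiating SG of the NELF-B cKO mice measured 909 and 509 CPM of Lin28a, above the 181 to 365 CPM of control mice. Undifferentiated SG measured 95.3 and 94.6 CPM, inside the control range of 85.2 to 120 CPM. The log2 fold change was 1.53 in differentiating SG (adjusted p = 0.181, edgeR) and -0.14 in undifferentiated SG (adjusted p = 0.685), neither passed, and the difference between the classes was not tested. Free RNA of these mice, at 121 and 115 CPM against 23.2 to 40.0 in control mice, moved the same way, and its part in the result was not tested. In thinned differentiating SG, 40.4% and 28.9% of cells held a Lin28a UMI in the NELF-B cKO mice against 18.5%, 11.5%, 17.3% and 19.1% in control mice (without thinning 82.3% and 84.0% against 55.4% to 61.1%). Cells with at least 3 Lin28a UMIs made up 20.9% and 13.9% against 9.93%, 4.74%, 5.00% and 5.73%. Thinning left out 2 control cells and no NELF-B cKO cell of this type.

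**Figure D3:**
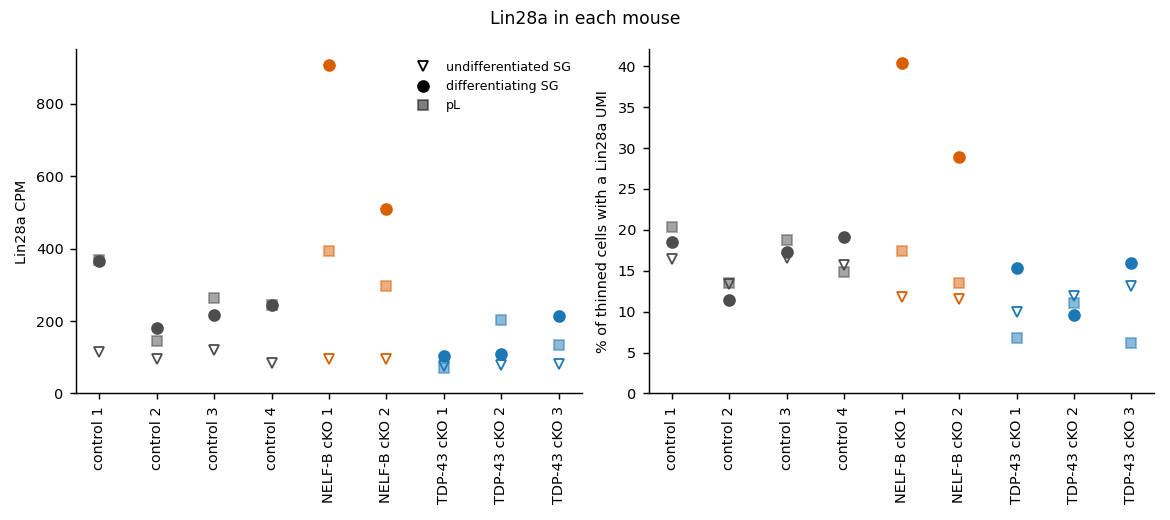
Lin28a in each mouse in undifferentiated SG (triangles), differentiating SG (circles) and pL (squares), as CPM on the left and as the share of cells thinned to 2000 UMIs that held a Lin28a UMI on the right (%). Both NELF-B cKO mice lay above the control mice in differentiating SG, while undifferentiated SG of all mice lay between 74.7 and 120 CPM.

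In SG of TDP-43 cKO mice Lin28a measured 87.9, 98.4 and 165 CPM, the highest of which overlapped the lowest control mouse (154 CPM), with a log2 fold change of -0.68 (SE 0.349, adjusted p = 0.347, edgeR). Sohlh1 measured 201, 169 and 169 CPM against 137 to 159 CPM in control mice, with every TDP-43 cKO mouse higher, a log2 fold change of 0.36 (SE 0.120) and adjusted p = 0.155. Uchl1 measured 982, 918 and 918 CPM against 797 to 858, with a log2 fold change of 0.25 (SE 0.0912, adjusted p = 0.187). By edgeR 0 of the 9 genes were called, 2 had an unadjusted p under 0.05 (Sohlh1 and Uchl1), DESeq2 called 0, and 0.00555% of all genes were called.

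After TMM scaling, Sohlh1, Crabp1 and Uchl1 did not overlap control mice (3 of 9 genes, beside 22.4% of all genes), although Crabp1 overlapped on plain CPM. The median log2 fold change of the 9 genes was 0.095 beside -0.0010 over all genes, and the genes not yet given were at -0.36 (Kit), -0.054 (Rarg), -0.049 (Sall4), 0.095 (Sohlh2), 0.16 (Dmrt1) and 0.19 (Crabp1). In undifferentiated SG alone, Sohlh1 measured 248, 265 and 248 CPM against 180 to 199 and passed the test (log2 fold change 0.46, adjusted p = 0.0442), as did Uchl1 at 1015, 943 and 912 CPM against 753 to 825 (0.33, adjusted p = 0.0499), in a setting that called 1.24% of all genes. In differentiating SG, Sohlh1 measured 144, 111 and 123 CPM in TDP-43 cKO mice against 108 to 131 in control mice, and these groups overlapped. The share of SG that were differentiating was 44.3%, 64.3% and 65.2% in TDP-43 cKO mice against 56.5% to 69.3% in control mice. Over all alternatives in SG the adjusted p ranged from 0.0442 to 0.758 for Sohlh1 and from 0.0499 to 0.533 for Uchl1. Markers of round spermatids summed to 14.3 to 25.1 CPM in SG of TDP-43 cKO mice against 41.8 to 155 in control mice, those of Leydig cells to 16.6 to 48.1 against 13.2 to 22.9, and those of macrophages to up to 17.2, each TDP-43 cKO mouse lying above the 2.33 to 8.37 of control mice. Free RNA held 33.9 to 62.3 CPM of Sohlh1 in TDP-43 cKO mice against 7.27 to 12.0 in control mice, and 236 to 318 CPM of Uchl1 against 58.2 to 86.1. The part of these measures in the results was not tested.

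The knockouts were also compared with each other, with no control mouse in the contrast. Lin28a in SG was 0.232-fold in TDP-43 cKO relative to NELF-B cKO (log2 fold change -2.11, SE 0.404), with all 3 TDP-43 cKO mice below both NELF-B cKO mice. It did not pass in edgeR (adjusted p = 0.0961), and it passed in DESeq2 (adjusted p = 0.00148, where 4.36% of all genes did) and in differentiating SG alone by edgeR (-2.31, adjusted p = 0.0439, where 0.885% did), and over all alternatives the adjusted p ranged from 0.00148 to 0.486. Differentiating SG measured 104, 110 and 214 CPM in TDP-43 cKO and 909 and 509 CPM in NELF-B cKO mice. With edgeR 0 of 9 genes were called in pooled SG, 2 had an unadjusted p under 0.05 (Lin28a and Sohlh1), and edgeR called 0.2% of all genes. Sohlh1 and Lin28a did not overlap, where 31.1% of all genes did not. The other log2 fold changes were -0.62 (Kit), -0.22 (Dmrt1), -0.11 (Crabp1), 0.055 (Uchl1), 0.063 (Sall4), 0.14 (Sohlh2), 0.16 (Rarg) and 0.38 (Sohlh1).

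**Figure D4:**
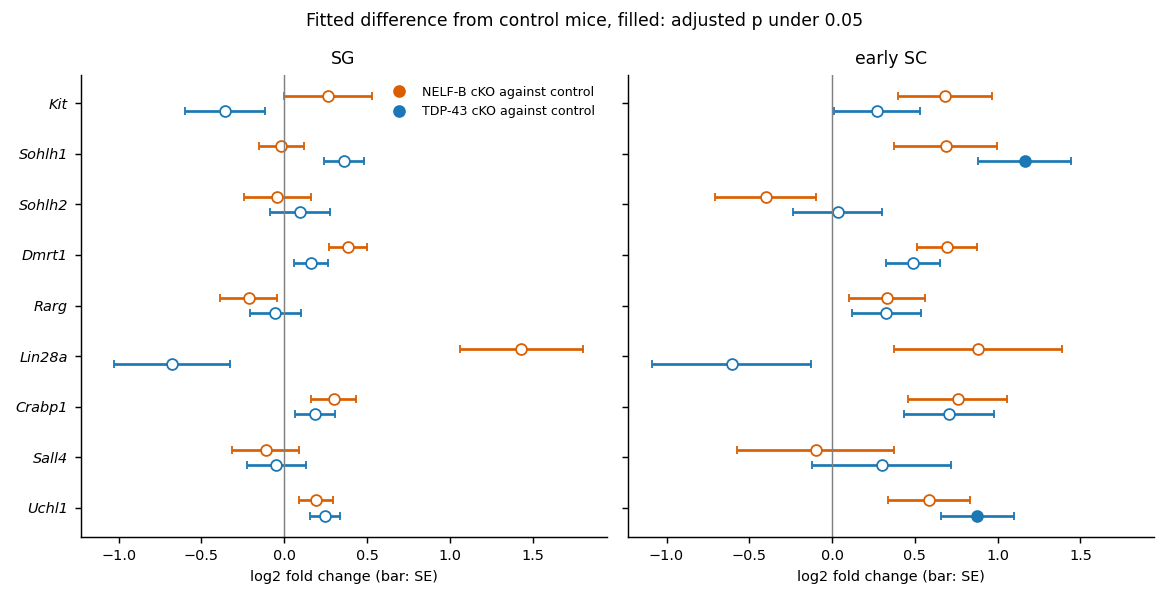
Log2 fold changes of the 9 genes against control in SG (left) and early SC (right) for each knockout (points, bars are the standard error of the edgeR fit, filled points passed the test). Lin28a was at 1.43 in NELF-B cKO SG and -0.68 in TDP-43 cKO SG, and the filled points are Sohlh1 and Uchl1 in TDP-43 cKO early SC.

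In early spermatocytes (early SC, the pL, L and Z cells pooled) of TDP-43 cKO mice, Sohlh1 and Uchl1 were higher than in control mice. Sohlh1 measured 59.1, 40.9 and 25.6 CPM against 22.6, 13.7, 22.9 and 16.2, so all TDP-43 cKO mice lay above the control mice and TDP-43 cKO 3 only just did. Its log2 fold change was 1.16 (SE 0.281, adjusted p = 0.0209, edgeR). Uchl1 measured 278, 215 and 173 CPM against 163, 84.5, 136 and 104, with a log2 fold change of 0.88 (SE 0.222, adjusted p = 0.0247). These 2 of 9 genes were called, both higher, beside 21% of all genes (7.47% higher), and 3 genes (with Dmrt1) did not overlap beside 38.2% of all genes. The other log2 fold changes were -0.61 (Lin28a), 0.033 (Sohlh2), 0.27 (Kit), 0.30 (Sall4), 0.33 (Rarg), 0.49 (Dmrt1) and 0.71 (Crabp1).

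Free RNA of the same genes was also higher in TDP-43 cKO mice. In barcodes with 1 to 100 UMIs Sohlh1 measured 59.9, 33.9 and 62.3 CPM against 7.27 to 12.0 in control mice, and Uchl1 measured 318, 236 and 274 CPM against 58.2 to 86.1. These levels were near or above those of early SC in the same mice, and the part of free RNA in the early SC result was not tested.

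The 2 calls did not hold under several alternatives, among them the following. Neither gene was called in pL alone (Sohlh1 0.97, adjusted p = 0.104, and Uchl1 0.73, adjusted p = 0.0751, beside 0.00749% of all genes). The count was 0 with no cell left out (1874 of 17055 genes called), without control 4 (1503 of 16054) or without TDP-43 cKO 1 (1544 of 16390). It was also 0 with replicate number as a block (318 of 16160). Without control 1 the count was 4 (2345 of 16320). In L alone edgeR called Uchl1, Sohlh2 (0.84, adjusted p = 0.0344) and Crabp1 (0.78, adjusted p = 0.0452) but not Sohlh1 (0.62, adjusted p = 0.101), beside 11.2% of all genes. In Z alone it called Crabp1 (2.43, adjusted p = 0.0184) and Dmrt1 (1.20, adjusted p = 0.0474) but not Uchl1 (0.39, adjusted p = 0.425), beside 31.5% of all genes. In L, Sohlh2 measured 44.7, 28.3 and 29.3 CPM in TDP-43 cKO mice against 17.5 to 23.4, above its free RNA of 14.4, 24.4 and 16.7 CPM, and in each TDP-43 cKO mouse Uchl1 in L and Crabp1 in L and Z and Dmrt1 in Z lay below free RNA. Leaving out control cells with a Tardbp UMI as well gave 0.35 for Sohlh1 (adjusted p = 0.499) and 0.12 for Uchl1 (adjusted p = 0.778). The step left out 42.8%, 44.7% and 49.3% of early SC in the TDP-43 cKO mice. Over all alternatives the adjusted p ranged from 0.000902 to 0.499 for Sohlh1 and from 0.00126 to 0.778 for Uchl1.

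Stage mixture differed between the mice. Of early SC UMIs, Z cells, in which most of the genes lay below free RNA, gave 9.97%, 31.0% and 36.0% in TDP-43 cKO mice, 15.6% and 28.5% in NELF-B cKO mice and 36.4% to 55.6% in control mice. Cells of pL gave 36.3%, 37.1% and 29.7%, 43.5% and 39.1%, and 20.0% to 40.5% in the same order. The fold changes within pL stand above, and the part of the mixture in the pooled values was not tested further. In pL, Sohlh1 measured 129, 76.8 and 57.3 CPM in the TDP-43 cKO mice against 42.4 to 52.5, with TDP-43 cKO 1 far above the others.

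**Figure D5:**
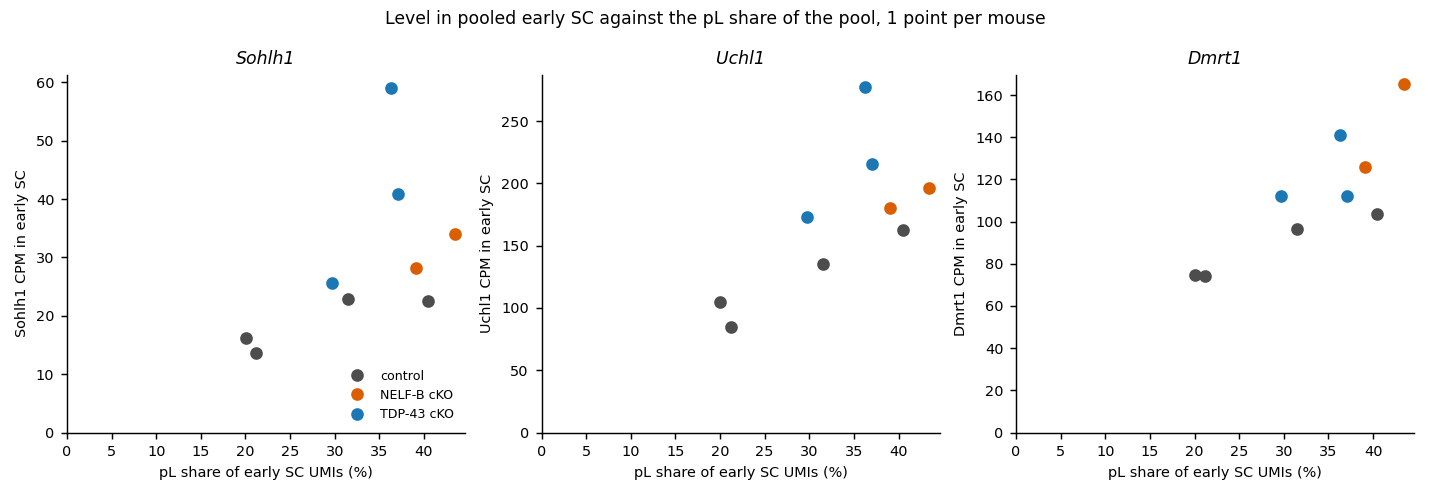
Levels of Sohlh1, Uchl1 and Dmrt1 in early SC (CPM, vertical axis) against the share of early SC UMIs that came from pL cells (%, horizontal axis), with 1 point per mouse coloured by genotype. Control mice with a pL share of 20.0% and 21.2% had the lowest levels of all 3 genes, and TDP-43 cKO 1, at 36.3%, had the highest Sohlh1 and Uchl1.

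In early SC of NELF-B cKO mice, 7 of the 9 genes had log2 fold changes above zero and 0 were called by edgeR (4 had an unadjusted p under 0.05), where 2.98% of all genes were called. DESeq2 called 1, Dmrt1, where it called 13.8% of all genes with an adjusted p. Dmrt1 measured 165 and 126 CPM against 104, 74.1, 96.3 and 74.9, with a log2 fold change of 0.69 (SE 0.180) and adjusted p = 0.0632. Kit measured 75.2 and 35.5 CPM against 26.3 to 42.0, and its groups overlapped. The other log2 fold changes were -0.40 (Sohlh2), -0.100 (Sall4), 0.33 (Rarg), 0.58 (Uchl1), 0.69 (Sohlh1), 0.76 (Crabp1) and 0.88 (Lin28a), beside 0.68 for Kit. On TMM-scaled CPM 5 genes (Sohlh1, Dmrt1, Rarg, Crabp1 and Uchl1) did not overlap control mice, where 34.2% of all genes did not. In L alone, Crabp1 (log2 fold change 1.13, adjusted p = 0.0267) and Uchl1 (0.64, adjusted p = 0.0376) passed, beside 4.18% of all genes, and over all alternatives their adjusted p ranged from 0.0267 to 0.817 and from 0.0376 to 0.988. Crabp1 in L measured 43.3 and 34.8 CPM in the NELF-B cKO mice, whose free RNA held 35.3 and 57.1 CPM against 15.8 to 25.9 in control mice, so NELF-B cKO 2 lay below its own free RNA. Uchl1 in L measured 119 and 91.8 CPM, with free RNA at 84.4 and 192 CPM against 58.2 to 86.1, and NELF-B cKO 2 again lay below it. In Z alone, Lin28a passed (1.58, adjusted p = 0.0160, edgeR), beside 6.75% of all genes, at 28.2 and 19.3 CPM against 6.20 to 8.17, with both NELF-B cKO mice below the 121 and 115 CPM of their free RNA. The part of free RNA in these calls was not tested.

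The genotype effect of TDP-43 loss was then compared between early SC and SG of the same mice. Sohlh1 differed by 0.89 (SE 0.211, adjusted p = 0.0413) and Uchl1 by 0.76 (SE 0.181, adjusted p = 0.0423) on the log2 scale, with the effect larger in early SC. These were 2 of 9 genes beside 4.21% of all genes (3.24% in the same direction), and the median over all genes was itself shifted by 0.12 towards early SC. The count was 0 with no cell left out (217 of 19163 genes called) and with RLE size factors (601 of 18627). It was 0 without control 1 (244 of 18580), control 2 (358 of 18464), control 3 (751 of 18481) or control 4 (112 of 18534). It was also 0 without TDP-43 cKO 1 (259 of 18778) or TDP-43 cKO 2 (415 of 18786), and it was 1 without TDP-43 cKO 3 (135 of 18518). The Z share of early SC UMIs and free RNA, given above, also differed between these genotypes. Their part in the interaction was not tested. For NELF-B cKO 0 of 9 genes differed between the stages (1 had an unadjusted p under 0.05, Sohlh1, and DESeq2 called 0), beside 0.0268% of all genes.

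SG and early SC were also pooled, the pool that the study used. By edgeR at adjusted p under 0.05, 4 of 9 genes were called in TDP-43 cKO. They were Sohlh1 (0.80, adjusted p = 0.0182), Uchl1 (0.65, 0.0214), Crabp1 (0.56, 0.0267) and Dmrt1 (0.46, 0.0280), all higher. Beside them 16% of all genes were called (5.03% higher). At the study's thresholds (adjusted p under 0.01, log2 fold change of at least 1) 0 of the 9 were called (86 of 19827 genes). At adjusted p under 0.05 the count was 0 without TDP-43 cKO 1 (686 of 19659 genes called) or with replicate number as a block (1 of 19827). It was also 0 with control cells holding a Tardbp UMI left out too (0 of 19204). It was 2 without control 3 (1646 of 19487) or TDP-43 cKO 2 (950 of 19718). It was 1 without control 4 (903 of 19543) or TDP-43 cKO 3 (834 of 19718). Crabp1 lost its call with no cell left out (0.33, adjusted p = 0.114, edgeR) and Dmrt1 in thinned cells (0.42, adjusted p = 0.0822). In NELF-B cKO 0 were called by edgeR (4 had an unadjusted p under 0.05), beside 0.0202% of all genes, and DESeq2 called 4 (Dmrt1, Lin28a, Crabp1 and Uchl1) where it called 12.6% of all genes with an adjusted p. The pool mixed stages in different shares: SG gave 34.4% to 52.2% of its UMIs in control mice, 51.0% and 61.2% in NELF-B cKO mice and 58.6% to 64.1% in TDP-43 cKO mice. Free RNA of TDP-43 cKO mice held 64.8 to 84.1 CPM of Crabp1 against 15.8 to 25.9 in control mice and 96.9 to 133 CPM of Dmrt1 against 15.8 to 33.3. The part of the SG share and of free RNA in the pooled values was not tested.

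Of somatic cells, in which Stra8-iCre is not active, Sertoli and Leydig cells were tested. By the genotype given above, these cells of cKO mice still carried a null allele of the targeted gene. Whether control mice carried a null allele is not given. The Sertoli class pooled 3 clusters in different shares: the one with the highest median UMI count gave 84.7% to 95.1% of its UMIs in TDP-43 cKO mice, 63.4% and 80.4% in NELF-B cKO mice and 42.6% to 77.2% in control mice. The part of this share in the Sertoli values was not tested. In Sertoli cells 8 genes were tested (Rarg was too low), and edgeR called 0 in NELF-B cKO (1 with an unadjusted p under 0.05, Dmrt1, DESeq2 0, beside 0% of all genes) and 0 in TDP-43 cKO (0 with an unadjusted p under 0.05, DESeq2 0, beside 3.08%). Sertoli Dmrt1 measured 127 and 84.5 CPM in NELF-B cKO and 107, 82.0 and 104 CPM in TDP-43 cKO mice against 65.8 to 83.3 in control mice. In Leydig cells 7 genes were tested, and edgeR called 0 in NELF-B cKO (0 unadjusted, DESeq2 0, beside 0% of all genes) and 0 in TDP-43 cKO (3 unadjusted, beside 0%), where DESeq2 called 1, Uchl1, and 7.17% of all genes. Leydig Uchl1 measured 25.7, 10.4 and 31.3 CPM in TDP-43 cKO mice, each below the 318, 236 and 274 CPM of free RNA in the same mice. Leydig Kit measured 127 and 70.8 CPM in NELF-B cKO, 88.8, 117 and 154 CPM in TDP-43 cKO and 88.0 to 145 CPM in control mice, and these groups overlapped.

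Of 42 other lineage and retinoic acid genes listed for this step, 41 could be tested in SG and 0 were called in either knockout against control or between the knockouts. In early SC 33 were tested. In TDP-43 cKO 8 were called, 5 higher and 3 lower, beside 21% of all genes: Rhox13, a homeobox gene of differentiating germ cells (0.99), Stra8, the retinoic acid-induced gene of meiotic entry (1.14), and Taf4b (0.45) were among the higher, and Ddx4, a germ cell RNA helicase (-0.87), and Rec8, a meiotic cohesin subunit (-0.89), among the lower, as log2 fold changes. In NELF-B cKO 4 were called beside 2.98% of all genes, with Lin28b, the paralogue of Lin28a (0.95), Sox3 (1.18) and Aldh1a1, a retinoic acid-synthesising enzyme (1.65), higher and Ddx4 (-0.67) lower. Z cells gave 15.6% and 28.5% of early SC UMIs in NELF-B cKO mice, 9.97% to 36.0% in TDP-43 cKO mice and 36.4% to 55.6% in control mice. In TDP-43 cKO mice 42.8% to 49.3% of early SC were left out. The part of these measures, of free RNA and of transcripts from other cells in the calls was not tested.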

How the data were processed

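Whole testes of mice at postnatal day 24 were dissociated and profiled with 10x Genomics 3′ libraries, 1 per mouse (4 control, 2 NELF-B cKO, 3 TDP-43 cKO). The authors made the deposited UMI counts with Cell Ranger against mm10. The methods give version 6.1.1 for demultiplexing and 7.0.0 for mapping, and the file headers name version 4, so the version that made the counts is uncertain. Gene coordinates here are from the GENCODE annotation of GRCm38 supplied as a reference, not from the authors' gene models.

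From these deposited counts, 45132 barcodes passed a minimum of more than 1000 genes and a limit of 10% on mitochondrial UMIs, and 26567 genes were found in over 15 of them. Cells were clustered with scanpy 1.11.5 and leidenalg 0.10.2 (3000 variable genes of which 2987 were used, 40 components, 20 neighbours, resolution 0.8), leaving out the 9 genes, the 42 pathway genes, Nelfb and Tardbp. Of 25 clusters, 19 were named from marker lists at 2-fold or more for at least 3 markers and a median of at least 2000 UMIs, and 27956 cells were named. Names rebuilt in this way may differ from those of the study. Lists of undifferentiated and differentiating SG markers were scored over all clusters in place of 1 pooled SG list. Doublets were not removed and no caller was run, and pairs of the 9 libraries shared 1 to 24 cell barcodes (36 pairs). In cKO mice, germ cells that still held the targeted transcript were dropped, as in the study. Thinning to 2000 UMIs left out 1531 cells of all types.

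UMIs were summed per mouse and cell type and tested with edgeR 4.0.16 (R 4.3.3; filterByExpr, TMM, quasi-likelihood F test, robust), all 9 mice in 1 fit, with Benjamini-Hochberg adjustment over all genes tested and calls at adjusted p under 0.05. Early SC against SG was tested as an interaction with mouse as a block. DESeq2 1.42.0 and the alternatives of the closing section were run on the same sums. The step was tested on simulated data for SG, NELF-B cKO against control: of 100 genes changed 2-fold 43 were recovered and of 100 changed 4-fold 67, with 7 false calls among 18016 genes. The study's thresholds (adjusted p under 0.01, log2 fold change of at least 1) were an alternative. Total UMIs were 119203347 to 159407373 per mouse, and with 2 to 4 mice per group the spread between mice limits precision.

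The 9 genes and the pathway list were chosen with earlier results of these data known. All 9 genes were to be named in every comparison, which the text does for SG and early SC and by counts elsewhere, pathway genes that were called are named up to 6 per comparison by smallest p (1 gene of the list is not reported here), and the 3 genes most alike to each member were ranked by Pearson r on log2(CPM + 1) among genes reaching 20 CPM. E-boxes were counted in the 250 bases before RefSeq starts.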

Additional observations from a re-analysis of the deposited data

Results flagged for a closer look

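Single control mice stood apart from the other 3 in 8 of the 81 sets of gene and cell type examined, where chance gives about 1 in 20. The control mouse farthest from the rest was the highest for Kit in SG (control 2, 134.0 CPM), Sohlh1 in Sertoli cells (control 2, 10.92 CPM), Sohlh2 in SG (control 4, 39.15 CPM), Crabp1 in Z (control 3, 2.855 CPM), Sall4 in L (control 3, 11.33 CPM), Uchl1 in Sertoli cells (control 3, 320.5 CPM) and Uchl1 in Leydig cells (control 3, 15.41 CPM), and the lowest for Sohlh1 in Leydig cells (control 3, 0.4971 CPM). Control 3 gave 5 of the 8. Its Sohlh1 value in Leydig cells rested on 1 UMI, against 3, 2 and 1 UMIs in control 1, control 2 and control 4. Its Sall4 value in L rested on 35 UMIs in 6 of 319 cells.

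The effect of TDP-43 loss differed between early SC and SG by an interaction test for Sohlh1 (log2 difference 0.8887) and Uchl1 (0.7646), as given in the report. Neither call held with RLE size factors, with all genes, with no cell left out or with removal in control mice too. With 1 mouse left out the count ranged from 0 to 2.

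Barcodes with 1 to 100 UMIs were used in no comparison. They held each of the 9 genes at a higher level in all 3 TDP-43 cKO mice than in any control mouse. In both NELF-B cKO mice they did so for 5 of the 9. The same share over all genes was not computed, so these counts cannot be read as particular to the 9 genes. The lowest TDP-43 cKO mouse was at 26.42 CPM for Kit against at most 11.2 in control mice, 33.87 for Sohlh1 against 12.0, 14.44 for Sohlh2 against 8.33, 96.88 for Dmrt1 against 33.3, 8.453 for Rarg against 3.52, 57.80 for Lin28a against 40.0, 64.81 for Crabp1 against 25.9, 13.55 for Sall4 against 5.44 and 236.4 for Uchl1 against 86.1. Lin28a was highest in these barcodes in the NELF-B cKO mice (121 and 115 CPM).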

How the results depend on the processing

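Each count of called genes was recomputed under other thresholds, normalization, filters, tools, cell selections and with each mouse left out, where a group left with 1 mouse was assumed to vary like the others. Of 1158 recomputed fold changes 1008 kept their direction and their side of the threshold, 45 gained a call, 39 lost one and 66 turned sign, 29 of these with a mouse left out. These fold changes covered SG, early SC and their pool. Those of the difference between early SC and SG, and of Sertoli and Leydig cells, were not among them. In the comparisons covered, none of the genes that edgeR called in the setting the report leads with turned sign. The size of turned values was at most 0.518. For Crabp1 between the knockouts, which was not called, the turned value passed the test. Stages taken alone (pL, L, Z) were chosen after seeing the data. Dropping control cells that held the targeted transcript was not run for TDP-43 cKO against NELF-B cKO, which holds no control mouse. The cause of each change was not tested. Few UMIs limit Sall4 in L and Z.

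Whether replicate numbers pair the mice is not given. Deviations of same-numbered mice in SG correlated from -0.355 to 0.255. Control 1 correlated at 0.2548 with NELF-B cKO 1 and at -0.2548 with NELF-B cKO 2. Such values depend on each other in small groups, so they cannot show whether the mice were paired. With the replicate block the count fell to 0 in early SC of TDP-43 cKO (318 of 16160 genes called). It also fell to 0 in pooled SG and early SC of TDP-43 cKO (1 of 19827). Sohlh2 in SG of NELF-B cKO turned to 0.0398. The block changed none of the other counts it was run for.

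For SG of TDP-43 cKO the count was 2 in undifferentiated SG (186 of 14996 genes called). Between the knockouts it was 1 with DESeq2 (4.36% of genes with an adjusted p), 1 in differentiating SG (144 of 16267) and 1 in undifferentiated SG (229 of 14996). For early SC of NELF-B cKO it was 1 with all genes (539 of 25532 called) and 1 with DESeq2 (13.8% of genes with an adjusted p). It was 2 (Lin28a and Dmrt1) with removal in control mice too (416 of 15317), 2 in L (528 of 12620) and 1 (Lin28a) in Z (831 of 12305). For early SC of TDP-43 cKO it was 0 at the study's thresholds (527 of 16160 genes called) and 4 with DESeq2 (4087 of 25532 genes run). It was 0 with no cell left out (1874 of 17055), 1 (Sohlh2) with removal in control mice too (639 of 15120) and 0 in pL (1 of 13351). For the pool of SG and early SC in NELF-B cKO it was 4 with DESeq2 (12.6% of genes with an adjusted p) and 4 with removal in control mice too (1101 of 19014). For this pool in TDP-43 cKO it was 0 at the study's thresholds (86 of 19827) and 0 with removal in control mice too (0 of 19204). In TDP-43 cKO it was 1 (Dmrt1) in thinned Sertoli cells (1377 of 9493 genes called) and 1 in Leydig cells with DESeq2 (7.17% of genes with an adjusted p). The difference between stages in TDP-43 cKO had a count of 0 at the study's thresholds (45 of 18627 genes called) and with RLE (601 of 18627). It was also 0 with all genes (699 of 26204), with no cell left out (217 of 19163) and with removal in control mice too (6 of 17516). With 1 mouse left out the counts ranged from 0 to 4 for SG of NELF-B cKO (4 without NELF-B cKO 2), 0 to 5 between the knockouts (5 without NELF-B cKO 2), 0 to 1 for early SC of NELF-B cKO (1 without NELF-B cKO 2 and 1 without TDP-43 cKO 1), 0 to 4 for early SC and 0 to 4 for the pool of TDP-43 cKO and 0 to 2 for the difference between stages, and were 0 in the other comparisons.

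Log2 fold changes that turned sign in SG of NELF-B cKO were, in undifferentiated SG, Kit -0.209, Sohlh1 0.118, Sohlh2 0.179, Lin28a -0.140, Crabp1 -0.183 and Sall4 0.0595. In SG of TDP-43 cKO they were Sohlh2 -0.0583 with removal in control mice too and -0.0556 in differentiating SG, and Crabp1 -0.0843 and Sall4 0.0555 with no cell left out. Between the knockouts they were Rarg -0.312 thinned and -0.114 in undifferentiated SG, Crabp1 0.500 in undifferentiated SG (where it passed, adjusted p = 0.0489, edgeR), Sall4 -0.0161 in differentiating and -0.140 in undifferentiated SG, and Uchl1 -0.0307 with no cell left out and -0.0928 in differentiating SG. In early SC of NELF-B cKO they were Sohlh2 0.169 in L and 0.00200 in Z, Rarg -0.0409 in pL, Sall4 0.217 with removal in control mice too and Uchl1 -0.0150 in Z. In early SC of TDP-43 cKO removal in control mice too gave Kit -0.312, Dmrt1 -0.0895, Rarg -0.195, Crabp1 -0.171 and Sall4 -0.0573, and other settings gave Kit -0.0105 thinned and -0.314 in pL, Sohlh2 -0.518 in Z, Rarg -0.0813 in L, Lin28a 0.383 in L and 0.315 in Z, and Sall4 -0.142 with no cell left out. In the pool, thinning gave Sall4 -0.111 in NELF-B cKO and Rarg -0.0240 in TDP-43 cKO.

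With 1 mouse left out, log2 fold changes that turned sign ranged in SG of NELF-B cKO from -0.261 to 0.702 for Kit, -0.158 to 0.162 for Sohlh1, -0.247 to 0.179 for Sohlh2 and -0.576 to 0.273 for Sall4, and in SG of TDP-43 cKO from -0.0975 to 0.217 for Sohlh2 and -0.148 to 0.0139 for Rarg. Between the knockouts they ranged from -0.0847 to 0.303 for Sohlh2, -0.0101 to 0.264 for Rarg, -0.427 to 0.153 for Crabp1, -0.321 to 0.493 for Sall4 and -0.0924 to 0.122 for Uchl1. In early SC they ranged from -0.312 to 0.324 for Sall4 (NELF-B cKO) and -0.198 to 0.239 for Sohlh2 (TDP-43 cKO). In the pool they ranged from -0.0145 to 0.818 for Kit, -0.103 to 0.238 for Rarg and -0.445 to 0.638 for Sall4 (NELF-B cKO), and from -0.131 to 0.141 for Kit and -0.180 to 0.132 for Sohlh2 (TDP-43 cKO).

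As shares of thinned cells with a UMI, the log2 ratio of differentiating over undifferentiated SG in control mice was 3.36 for Kit, -0.496 for Sohlh1, -1.68 for Rarg, 0.0961 for Lin28a, 1.301 for Crabp1, -0.779 for Sall4 and, turned in sign, -0.0390 for Uchl1, and by mean per-cell CPM it was 0.0940 for Uchl1.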

Other observations

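Among the 42 other lineage and retinoic acid genes, Zbtb16, a zinc finger factor of undifferentiated SG, was called in Sertoli cells of TDP-43 cKO mice by edgeR (log2 fold change 1.53, adjusted p = 0.0470), where 2 of 34 listed genes were called beside 3.08% of all genes. Sertoli cells of the genotypes lay in different shares in 3 clusters. The deepest gave 84.7% to 95.1% of Sertoli UMIs in TDP-43 cKO mice and 42.6% to 77.2% in control mice. Free RNA of each of the 9 genes was higher in TDP-43 cKO than in control mice, and that of Zbtb16 is not given here. The part of the cluster shares and of free RNA in this call was not tested. With SG and early SC pooled, 8 of 41 tested were called in TDP-43 cKO, beside 16% of all genes. Figla (0.74), Rhox13 (0.59), Sox3 (0.59) and Ccnd1, a cyclin of the G1 phase (0.53), were higher, and Stra6, a retinol uptake receptor (-1.54), Rec8 (-1.07), Ddx4 (-0.56) and Aldh1a2, a retinoic acid-synthesising enzyme (-0.55), were lower, as log2 fold changes in a pool whose stage shares differed between genotypes. Sox3 and Stra6 are named here after their values were seen.

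The effect of TDP-43 loss also differed between early SC and SG for genes of the list, in a contrast that called 4.21% of all genes and whose median over all genes was 0.12. The log2 difference was 1.78 for Stra8, 0.72 for Rhox13 and 0.69 for Taf4b, with higher effects in early SC, and -0.70 for Ddx4. The part of stage mixture and of free RNA in these differences was not tested. Levels of Kit across the 15 cell types of control mice were most like those of Auts2 (Pearson r = 0.862) and Cad (r = 0.861), and levels of Dmrt1 most like those of Glis1 (r = 0.949).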
